A study of Arabidopsis thaliana with 25 samples.

Results

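A set of 40 transcripts in Arabidopsis thaliana roots was lower whenever the translation inhibitor cycloheximide (CHX) was present. By the choice of the set, its levels differed little between dexamethasone (DEX) alone and the solvent DMSO. The 40 were chosen on measured values, as array rows that name 1 gene, whose mean level in DEX+CHX lay at least 1.8 log2 units below the mean in DEX in both transgenic lines, and whose mean in DEX lay within 0.5 of the mean in DMSO in both lines. They made up 40 of the 16746 rows that name 1 gene (0.239%), represented 40 different protein-coding loci, and are called CHX-lowered transcripts here. RNA decay was not measured, so these levels do not show whether any of the 40 is short-lived. Levels are log2 intensities summarised by RMA, which corrects background, normalizes arrays to each other and combines the probes of a row. On the log2 scale a difference of 1 is a doubling of intensity, and the limit of 1.8 corresponds to 3.48-fold.

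The study expressed PEAR1 or PEAR2, DOF-type transcription factors of the root vasculature, fused to the hormone-binding domain of the glucocorticoid receptor (GR). Such a fusion is held in the cytoplasm until DEX lets it enter the nucleus. All plants were of the Col-0 ecotype and carried 1 of 2 constructs, pRPS5A::PEAR1-GR in the PEAR1 line and pRPS5A::PEAR2-GR in the PEAR2 line, in which the RPS5A promoter, active mainly in dividing cells, drives the fusion. There was no line without a fusion among the groups, so every value below comes from plants that carry one.

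Seedlings were 4 days old when they were moved to medium with the compounds, and RNA from the roots was hybridised to whole-transcript arrays. The tissue is labelled root, and the source field root tips. Each line had a DMSO group treated for 1 h and DEX, DMSO+CHX and DEX+CHX groups treated for 2 h, DMSO being the solvent. Each group held 3 arrays, except PEAR1 DEX+CHX with 4, for 25 arrays in all. The labels give an arraying batch. Batch A461 held the 2 DMSO+CHX groups and batch A451 the remaining 6, so DEX+CHX and DEX share batch and time, whereas DMSO+CHX and DMSO differ in CHX, batch and time, which cannot be told apart. DEX and DMSO share a batch but differ in DEX and in time, which cannot be told apart either. Whether replicates were grown or harvested apart is not in the labels, so p-values measure only the spread between these samples.

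CHX blocks the elongation step of protein synthesis on ribosomes. In transcription factor experiments of this design it is used to separate genes that respond without new protein from genes that respond through a newly made protein. It also changes RNA levels by itself: many plant transcripts accumulate when translation stops, because their decay or repression depends on ongoing protein synthesis, and the opposite change is described less often.

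In these arrays a fall of 1.8 or more from DEX to DEX+CHX was met by 95 PEAR1-line rows (0.567%) and by 109 PEAR2-line rows (0.651%), and 61 rows met it in both. Of those 61 rows, 21 had moved by more than 0.5 with DEX alone in at least 1 line, which left the 40. A further 27 rows flat with DEX met the limit in the PEAR1 line only and 17 in the PEAR2 line only. In the other direction, 586 rows that were flat with DEX were higher by 1.8 or more in both lines. These counts describe the choice, and nothing is read from them as a test.

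Among the 40, the mean difference of the 2 lines ran from -4.53 to -1.81 with a median of -2.26, which is 23.1-fold to 3.52-fold lower with a median of 4.8-fold. It was 3 or more for 3 transcripts, between 2 and 3 for 29, and under 2 for 8. The medians were -2.23 in PEAR1-line roots and -2.22 in PEAR2-line roots, against -0.09 and -0.12 over all single-gene rows. With DEX alone the 40 differed from DMSO by -0.22 to 0.43 in the PEAR1 line and by -0.50 to 0.48 in the PEAR2 line, within the limit set by the choice. Just inside the limit lay scpl50 (-1.83 and -1.8) and AT5G10340 (-2.14 and -1.82). Just outside it lay AT5G58370 at -1.8 in both lines, whose PEAR1 value before rounding misses the limit, and AT2G20710 (-1.77 and -1.94).

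For 40 of 40 transcripts the lowest of the 12 arrays without CHX lay above the highest of the 13 arrays with CHX, as it did for 14.0% of all single-gene rows. The gap between those extremes ran from 0.657 to 3.70 log2 units, with a median of 1.41. Apart from the DMSO+CHX arrays, all of these arrays were used for the choice, so nothing is read from the count.

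**Figure D1:**
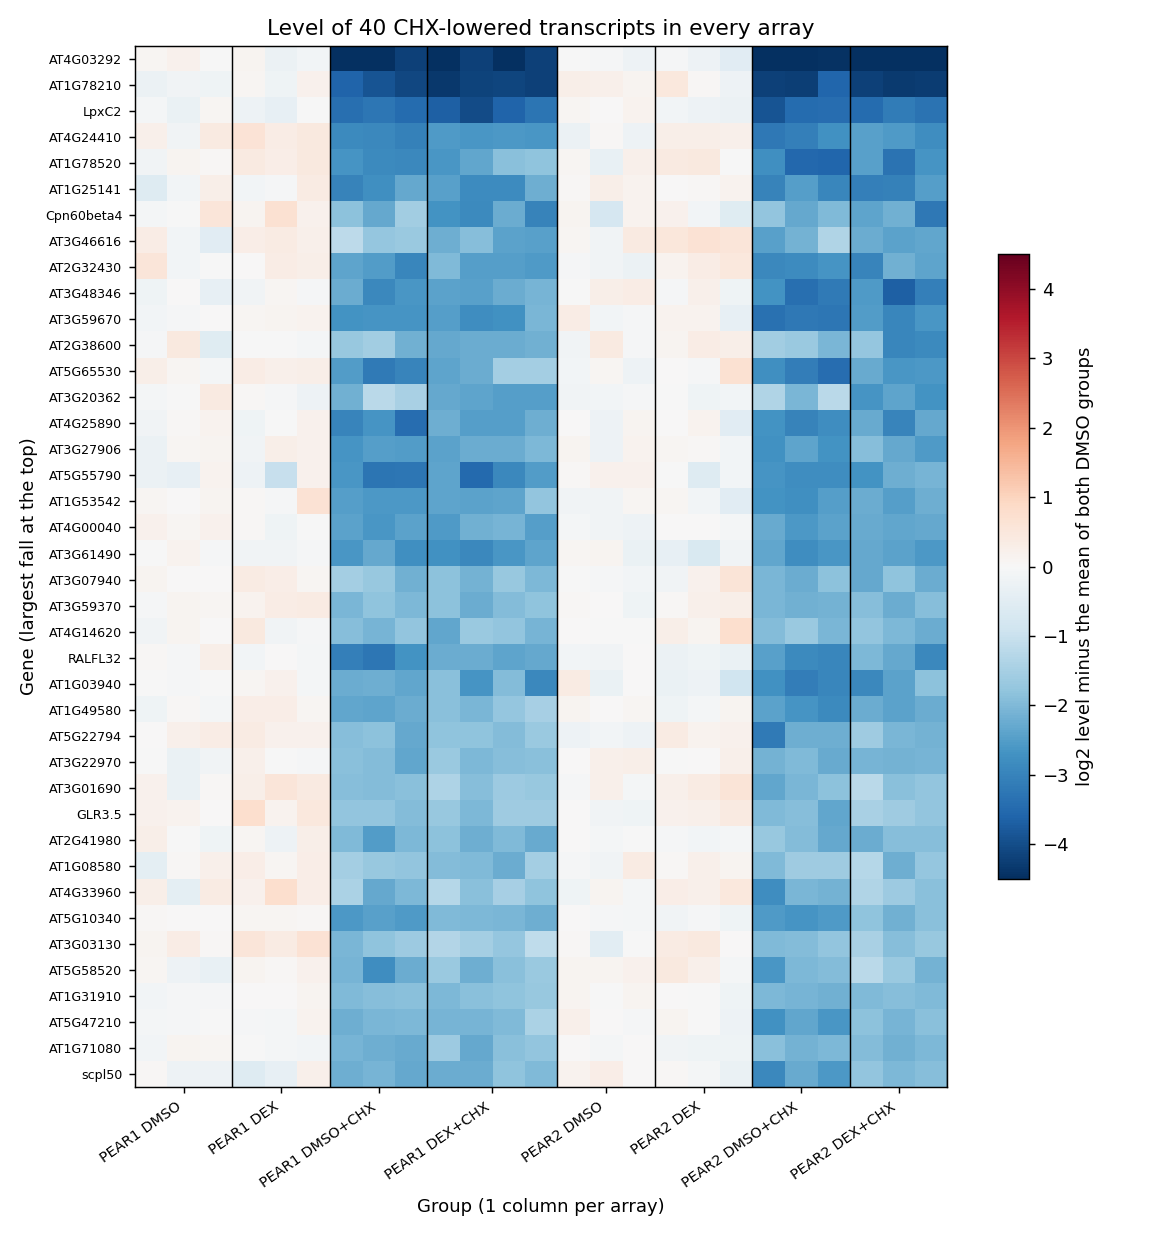
The log2 level of each of the 40 transcripts (rows, largest fall at the top) in each of the 25 arrays (columns, by group), coloured as the difference from the mean of both DMSO groups. Columns with CHX are low for all 40 rows in both lines, including the DMSO+CHX columns, which played no part in choosing the rows.

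The arrays of roots given CHX without DEX were not used in the choice, and they give the main test. From DMSO to DMSO+CHX all 40 transcripts fell in the PEAR1 line, against 25.2% of all rows called lower, and all 40 fell in the PEAR2 line, again against 25.2%, at an adjusted p under 0.05 in limma's two-sided moderated test. In pairs of values the PEAR1 line comes first, and the error of a change is limma's moderated standard error, which rests on the spread within all groups, those used for the choice included. The highest adjusted p among the 40 was 1.52e-05 in PEAR1-line roots and 1.13e-05 in PEAR2-line roots. The median change of the 40 was -2.23 and -2.56, beside -0.09 and -0.04 over all rows that name a gene. The changes ran from -4.8 to -1.43 in PEAR1-line roots and from -4.82 to -1.44 in the PEAR2 line. The same size of fall as in the choice, 1.8 or more, was reached by 36 transcripts for PEAR1 and 37 for PEAR2, 35 of them in both, beside 1.00%, 1.37% and 0.818% of all single-gene rows. The DMSO arrays had entered the choice through the limit on DEX against DMSO, so the test is independent of it in the DMSO+CHX arrays only. The shares beside the 40 include many rows of lower level than any of the 40, and rows of like level were not set apart.

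In each line the DMSO+CHX arrays lay wholly below the DMSO arrays for 40 of 40 transcripts, where 29.6% of single-gene rows did so in PEAR1-line roots and 28.3% in PEAR2-line roots, and 22.1% in both. Of all calls in this comparison 55.4% were lower in PEAR1-line roots and 53.9% in PEAR2-line roots. After 1 more quantile normalization these shares were 42.6% and 43.0%, with the median of all rows at 0.11 and 0.12 and the medians of the 40 at -2.17 and -2.40. In bulk roots, fewer cells of a type and less RNA per cell cannot be told apart.

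**Figure D2:**
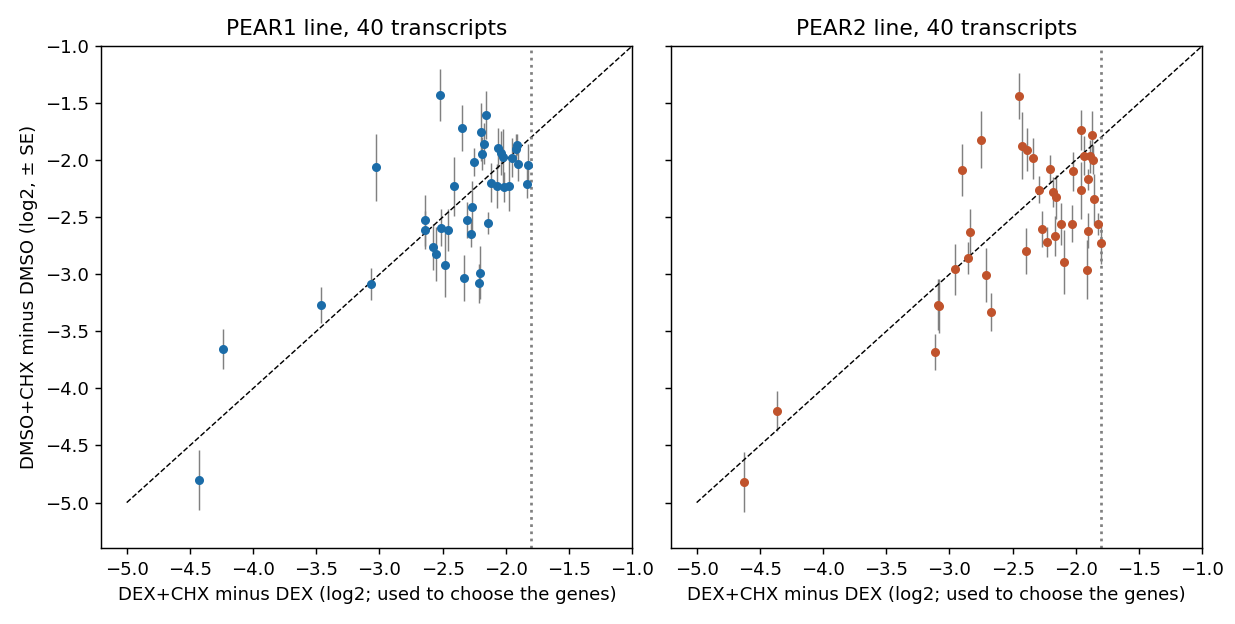
For each of the 40 transcripts, the change from DMSO to DMSO+CHX (vertical axis, log2 with its standard error) against the change from DEX to DEX+CHX that chose it (horizontal axis, log2), with the PEAR1 line on the left and the PEAR2 line on the right. The dashed line marks equal changes and the dotted line the limit of -1.8. All points lie below -1.4 on the vertical axis, and 22 in PEAR1-line roots and 28 in PEAR2-line roots lie below the dashed line.

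The largest measured fall belonged to AT4G03292, a locus without a symbol in the annotation. The fall of AT1G78210 ended at the array floor, a group mean of 2.3 or lower, so which of the 2 fell more is not established. AT4G03292 in the PEAR1 line read 7.57, 7.67 and 7.46 in DMSO, 7.61, 7.21 and 7.35 in DEX, 2.1, 2.90 and 3.29 in DMSO+CHX, and 2.67, 3.27, 2.61 and 3.28 in DEX+CHX. AT4G03292 in the PEAR2 line read 7.47, 7.43 and 7.26 in DMSO, 7.41, 7.23 and 6.98 in DEX, 2.77, 1.93 and 3.01 in DMSO+CHX, and 2.57, 2.68 and 2.50 in DEX+CHX. No array with CHX came near any array without it, and the 2 lines gave the same picture. From DMSO to DMSO+CHX it fell by 4.8 ± 0.26 (SE, n = 3 against 3) in the PEAR1 line, 27.9-fold lower, and by 4.82 ± 0.26 in the PEAR2 line, 28.3-fold lower, with limma adjusted p of 5.47e-13 and 4.73e-13. The DMSO+CHX means of 2.76 and 2.57 lay just above the floor, and single arrays at 2.1 and 1.93 lay below it. The floor may therefore limit these sizes too.

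Of the 40, 5 had a gene symbol, and they come from unrelated families. LpxC2 (AT1G24880) belongs to a small tandem family of near-identical genes for a deacetylase of a lipid A-like pathway in mitochondria. LpxC2 in the PEAR1 line read 9.41, 9.21 and 9.60 in DMSO, 9.28, 9.14 and 9.48 in DEX, 6.12, 6.25 and 6.05 in DMSO+CHX, and 5.81, 5.46, 5.88 and 6.20 in DEX+CHX. LpxC2 in the PEAR2 line read 9.60, 9.53 and 9.65 in DMSO, 9.38, 9.27 and 9.23 in DEX, 5.62, 6.04 and 6.07 in DMSO+CHX, and 6.03, 6.34 and 6.17 in DEX+CHX. The groups with and without CHX were far apart in both lines, and the 2 CHX groups of a line lay close to each other. LpxC2 fell by 3.27 ± 0.16 in the PEAR1 line (adjusted p = 5.27e-14 in limma, n = 3 against 3) and by 3.68 ± 0.16 in the PEAR2 line (5.87e-15).

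Rows that the annotation assigns to LpxC2 together with other genes did not move alike. The 5 rows assigned to LpxC1 to LpxC5 jointly differed between DEX+CHX and DEX by -1.08 to -0.51 in the PEAR1 line and by -0.94 to -0.39 in the PEAR2 line. A row shared by AT1G24996 and LpxC2 differed by -3.72 and -4.72, more than the LpxC2 row itself (-3.46 and -3.11). A row shared by 4 genes, LpxC2 among them, differed by -0.93 and -0.91. Which gene a shared row measures is not known from the annotation. AT1G25141, another of the 40, lies next to LpxC4 in the same cluster of genes and differed by -2.64 and -2.95 between DEX+CHX and DEX.

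RALFL32 (AT4G14010) encodes a RALF peptide, a small secreted signal of a family that in Arabidopsis acts on receptor kinases and alters cell expansion and wall pH. RALFL32 in the PEAR1 line read 6.39, 6.28 and 6.59 in DMSO, 6.21, 6.35 and 6.25 in DEX, 3.27, 3.09 and 3.66 in DMSO+CHX, and 4.12, 4.08, 3.98 and 4.03 in DEX+CHX. RALFL32 in the PEAR2 line read 6.20, 6.18 and 6.36 in DMSO, 6.06, 6.13 and 6.04 in DEX, 3.88, 3.46 and 3.41 in DMSO+CHX, and 4.30, 4.03 and 3.42 in DEX+CHX. Every CHX array was lower than every array without CHX, and in the PEAR1 line the DMSO+CHX arrays were also lower than the DEX+CHX arrays. RALFL32 changed by -3.08 ± 0.17 and -2.66 ± 0.17 from DMSO to DMSO+CHX (limma adjusted p = 9.45e-13 and 1.14e-11, n = 3 against 3 in each line). Of the other 17 RALF rows 9 had a mean over all arrays above the floor of 2.3, and of these 4 were lower in both lines from DEX to DEX+CHX and 4 higher. That mean includes the CHX arrays. RALFL21, among the higher rows, read 1.97 in DMSO, below the floor, with little room to fall, so the counts of lower and higher are not compared. RALFL34 was at -1.61 and -1.59 and RALFL33 at 2.00 and 2.27.

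GLR3.5 (AT2G32390) encodes a glutamate receptor-like channel of the plant family that carries calcium across membranes. GLR3.5 in the PEAR1 line read 7.39, 7.35 and 7.23 in DMSO, 7.96, 7.38 and 7.68 in DEX, 5.44, 5.43 and 5.27 in DMSO+CHX, and 5.49, 5.20, 5.63 and 5.62 in DEX+CHX. GLR3.5 in the PEAR2 line read 7.23, 7.04 and 7.03 in DMSO, 7.42, 7.45 and 7.61 in DEX, 5.24, 5.28 and 4.88 in DMSO+CHX, and 5.75, 5.62 and 5.44 in DEX+CHX. The arrays split by CHX in both lines, with the 2 CHX groups overlapping in the PEAR1 line. It changed by -1.95 ± 0.14 and -1.97 ± 0.14 from DMSO to DMSO+CHX (limma adjusted p = 1.43e-10 and 1.07e-10). Of the other 8 GLR rows 7 had a mean over all arrays above the floor, and of these 2 were lower in both lines from DEX to DEX+CHX and 5 higher. That mean again includes the CHX arrays. GLR2.9, GLR2.8 and GLR2.7, among the higher rows, read 2.46, 2.22 and 1.86 in DMSO, at or near the floor. They had little room to fall, so the counts of lower and higher are not compared.

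Cpn60beta4 (AT1G26230) encodes a subunit of the chloroplast chaperonin, the folding machine that assists newly imported proteins. Cpn60beta4 in the PEAR1 line read 5.60, 5.65 and 6.22 in DMSO, 5.80, 6.34 and 5.87 in DEX, 3.82, 3.35 and 4.10 in DMSO+CHX, and 2.99, 2.82, 3.43 and 2.67 in DEX+CHX. Cpn60beta4 in the PEAR2 line read 5.81, 4.91 and 5.84 in DMSO, 5.88, 5.54 and 5.12 in DEX, 3.89, 3.37 and 3.69 in DMSO+CHX, and 3.3, 3.5 and 2.46 in DEX+CHX. The arrays of a group spread widely here, and the CHX arrays still lay below the others without overlap. It changed by -2.06 ± 0.29 in PEAR1-line roots and by -1.88 ± 0.29 in PEAR2-line roots (limma adjusted p = 3.54e-06 and 1.13e-05), less than its difference between DEX+CHX and DEX of -3.03 and -2.43. A row of a related subunit, Cpn60beta2, differed by -1.94 and -1.65 from DEX to DEX+CHX. All 3 other Cpn60 rows, 1 of them a second row of Cpn60beta4, were lower in both lines, where 50.3% of single-gene rows were. With so few rows, no family trait is read from this.

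The fifth, scpl50 (AT1G15000), encodes a serine carboxypeptidase-like enzyme and entered the set closest to the limit. From DMSO to DMSO+CHX it fell from 5.36 ± 0.16 (SD, n = 3) to 3.32 ± 0.11 in PEAR1-line roots and from 5.66 ± 0.14 to 2.93 ± 0.33 in the PEAR2 line. It changed by -2.04 and -2.73. Of the other 32 rows of its family, a second row of scpl50 included, 18 had a mean over all arrays above the floor. Of these, 9 were lower in both lines from DEX to DEX+CHX and 5 higher. Here too that mean includes the CHX arrays, so the counts of lower and higher are not compared. Of all single-gene rows, at any level, 50.3% were lower in both lines. The relatives of these genes were looked up after the values of the 40 were known.

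**Figure D3:**
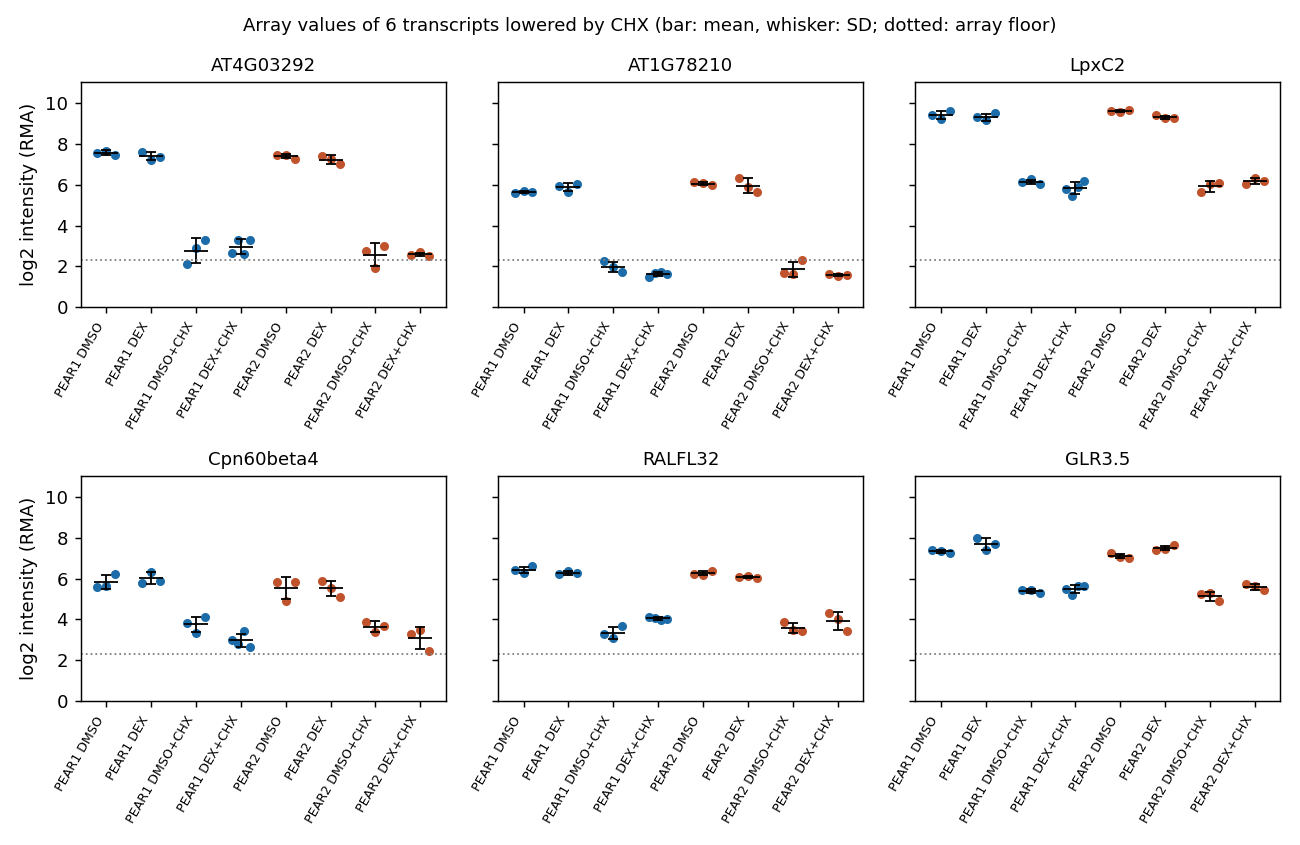
Log2 intensity in every array for AT4G03292, AT1G78210, LpxC2, Cpn60beta4, RALFL32 and GLR3.5, by group, with points for arrays, a bar for the group mean and whiskers for 1 SD. Blue marks the PEAR1 line, orange the PEAR2 line, and the dotted line the array floor at 2.3. The CHX groups are low in both lines for all 6, and AT1G78210 with CHX lies at the floor.

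The other 35 loci carry no symbol in the annotation, and where a role is given for them below it is general knowledge of the gene family. AT1G31910 encodes phosphomevalonate kinase, which works in the mevalonate route to isoprenoids such as sterols. AT1G31910 in the PEAR1 line read 9.91, 9.96 and 9.98 in DMSO, 10.05, 10.05 and 10.16 in DEX, 8.03, 8.10 and 8.13 in DMSO+CHX, and 8.02, 8.15, 8.21 and 8.32 in DEX+CHX. AT1G31910 in the PEAR2 line read 10.14, 10.03 and 10.15 in DMSO, 10.06, 10.02 and 9.83 in DEX, 8.02, 7.95 and 7.85 in DMSO+CHX, and 8.03, 8.12 and 8.03 in DEX+CHX. Replicates lay close together, and all CHX arrays were below all others. It changed by -1.87 ± 0.09 and -2.17 ± 0.09 from DMSO to DMSO+CHX (limma adjusted p = 1.21e-13 and 7.58e-15). AT1G03940, an acyltransferase of the anthocyanin type, changed by -2.23 ± 0.26 and -2.96 ± 0.26. AT4G00040, which is related to chalcone synthase, changed by -2.65 ± 0.12 and -2.26 ± 0.12.

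AT1G78210 and AT3G01690 both belong to the alpha/beta hydrolase superfamily, a fold shared by many esterases and lipases. AT1G78210 in the PEAR1 line read 5.59, 5.69 and 5.64 in DMSO, 5.95, 5.65 and 6.04 in DEX, 2.25, 1.95 and 1.75 in DMSO+CHX, and 1.5, 1.69, 1.73 and 1.65 in DEX+CHX. AT1G78210 in the PEAR2 line read 6.12, 6.07 and 5.97 in DMSO, 6.33, 5.89 and 5.62 in DEX, 1.66, 1.61 and 2.29 in DMSO+CHX, and 1.63, 1.53 and 1.58 in DEX+CHX. All 4 CHX groups of AT1G78210 had means between 1.58 and 1.99, at or below the array floor of 2.3, so its changes of -3.66 ± 0.17 and -4.20 ± 0.17 from DMSO to DMSO+CHX are lower bounds of the size. It was the 1 transcript of the 40 with a group mean at the floor. AT3G01690 changed by -1.89 ± 0.17 and -2.1 ± 0.17 and stayed above the floor.

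AT1G78520, with a carbohydrate-binding X8 domain, fell from 8.03 ± 0.14 to 5.20 ± 0.13 (SD, n = 3) in PEAR1-line roots and from 8.01 ± 0.30 to 4.73 ± 0.46 in the PEAR2 line. AT3G61490, a pectin lyase-like protein, changed by -2.59 ± 0.16 and -2.56 ± 0.16. AT2G32430, of a galactosyltransferase family, changed by -2.76 ± 0.20 and -2.63 ± 0.20. The standard errors of these changes were small beside the changes in both lines.

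AT5G65530, a receptor-like cytoplasmic kinase, fell from 8.31 ± 0.17 to 5.33 ± 0.34 (SD, n = 3) in PEAR1-line roots and from 8.12 ± 0.16 to 5.11 ± 0.35 in the PEAR2 line. These are changes of -2.98 and -3.01. AT1G49580, a kinase related to the calcium-dependent protein kinases, changed by -2.24 ± 0.13 and -2.72 ± 0.13. The kinase AT5G58520 changed by -2.23 ± 0.22 and -2.34 ± 0.22. AT2G41980, an E3 ubiquitin ligase of the SINA type, changed by -2.20 ± 0.17 and -1.96 ± 0.17.

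AT5G10340 encodes an F-box protein, the kind of subunit that selects targets for an SCF ubiquitin ligase. AT5G10340 in the PEAR1 line read 9.23, 9.16 and 9.19 in DMSO, 9.24, 9.24 and 9.20 in DEX, 6.59, 6.73 and 6.60 in DMSO+CHX, and 7.17, 7.13, 7.11 and 6.95 in DEX+CHX. AT5G10340 in the PEAR2 line read 9.17, 9.12 and 9.08 in DMSO, 9.0, 9.11 and 8.97 in DEX, 6.60, 6.49 and 6.61 in DMSO+CHX, and 7.35, 6.98 and 7.27 in DEX+CHX. In both lines every CHX array was below every other, and all DMSO+CHX arrays lay below all DEX+CHX arrays. It changed by -2.55 ± 0.10 and -2.56 ± 0.10 from DMSO to DMSO+CHX, with the lowest adjusted p of the 40 in each line (9.43e-16 and 7.63e-16 in limma).

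AT4G25890, an acidic ribosomal protein of the P3 type, fell from 7.08 ± 0.16 to 4.04 ± 0.38 (SD, n = 3) in PEAR1-line roots and from 7.03 ± 0.18 to 4.23 ± 0.18 in the PEAR2 line. AT5G47210, an RNA-binding protein with RGG motifs, changed by -2.03 ± 0.16 and -2.62 ± 0.16. AT3G07940, of the GTPase-activating proteins that act on ARF in vesicle traffic, changed by -1.86 ± 0.18 and -1.98 ± 0.18.

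For the remaining loci no role is given. The larger falls among them from DMSO to DMSO+CHX were those of AT3G59670 (-2.62 ± 0.17 and -3.33 ± 0.17), AT4G24410 (-3.08 ± 0.14 and -2.86 ± 0.14), AT3G48346 (-2.41 ± 0.22 and -3.27 ± 0.22), AT5G55790 (-2.92 ± 0.28 and -2.89 ± 0.28) and AT1G25141 (-2.53 ± 0.22 and -2.96 ± 0.22). The smallest in the PEAR1 line was that of AT3G46616, at -1.43 ± 0.23, which fell by 2.09 ± 0.23 in the PEAR2 line. The smallest in the PEAR2 line was that of AT3G20362, at -1.44 ± 0.20, which fell by 1.72 ± 0.20 in the PEAR1 line. AT2G38600 changed by -1.75 ± 0.25 and -1.82 ± 0.25, AT3G22970 changed by -1.91 ± 0.13 and -2.28 ± 0.13, and AT1G71080 changed by -2.21 ± 0.13 and -2.0 ± 0.13. The other 8, AT1G08580, AT1G53542, AT3G03130, AT3G27906, AT3G59370, AT4G14620, AT4G33960 and AT5G22794, changed by -2.61 to -1.61 in the PEAR1 line and by -2.61 to -1.74 in the PEAR2 line.

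The PEAR1 and PEAR2 lines were then compared with each other. The choice asked that both lines pass, so it left out the flat rows that fell in the PEAR1 line only (27) or in the PEAR2 line only (17). It therefore favoured rows that behave alike in both lines, and it used the DMSO arrays. For this reason the counts of 0 between the lines given below are not read as showing that the lines are alike. In DMSO+CHX, where both lines share batch and time, 0 of the 40 differed at an adjusted p under 0.05 in limma, against 0.114% of all rows, and 7 had an unadjusted p under 0.05, beside 7.70% of all rows. The differences, PEAR1 minus PEAR2, ran from -0.31 to 0.68 with a median of 0.13, beside -0.005 over all rows that name a gene. Of the 40 differences 30 were above 0, a count that was not tested. Their 95% confidence intervals reached from -0.90 to 1.21. In DMSO 0 of the 40 differed (0.189% of all rows), 4 at an unadjusted p under 0.05 beside 9.83% of all rows, with differences from -0.41 to 0.39. Differences within these intervals are not excluded.

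The change from DMSO to DMSO+CHX itself was compared between the lines, where batch and time cancel. None of the 40 passed (0 of 40, against 0.149% of all rows in limma), and 8 had an unadjusted p under 0.05, beside 9.64% of all rows. The differences of changes ran from -0.42 to 0.86, and their intervals from -1.05 to 1.52. AT3G48346 had the highest of these differences, 0.86 ± 0.32 (SE, adjusted p = 0.351 in limma), with the larger fall in the PEAR2 line. AT3G59670 had the lowest adjusted p for a difference between the lines in DMSO+CHX, 0.192, at 4.82 ± 0.03 (SD, n = 3) in PEAR1-line roots and 4.21 ± 0.08 in PEAR2-line roots. AT1G03940 had the largest difference there, 0.68 ± 0.26 (adjusted p = 0.483 in limma).

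**Figure D4:**
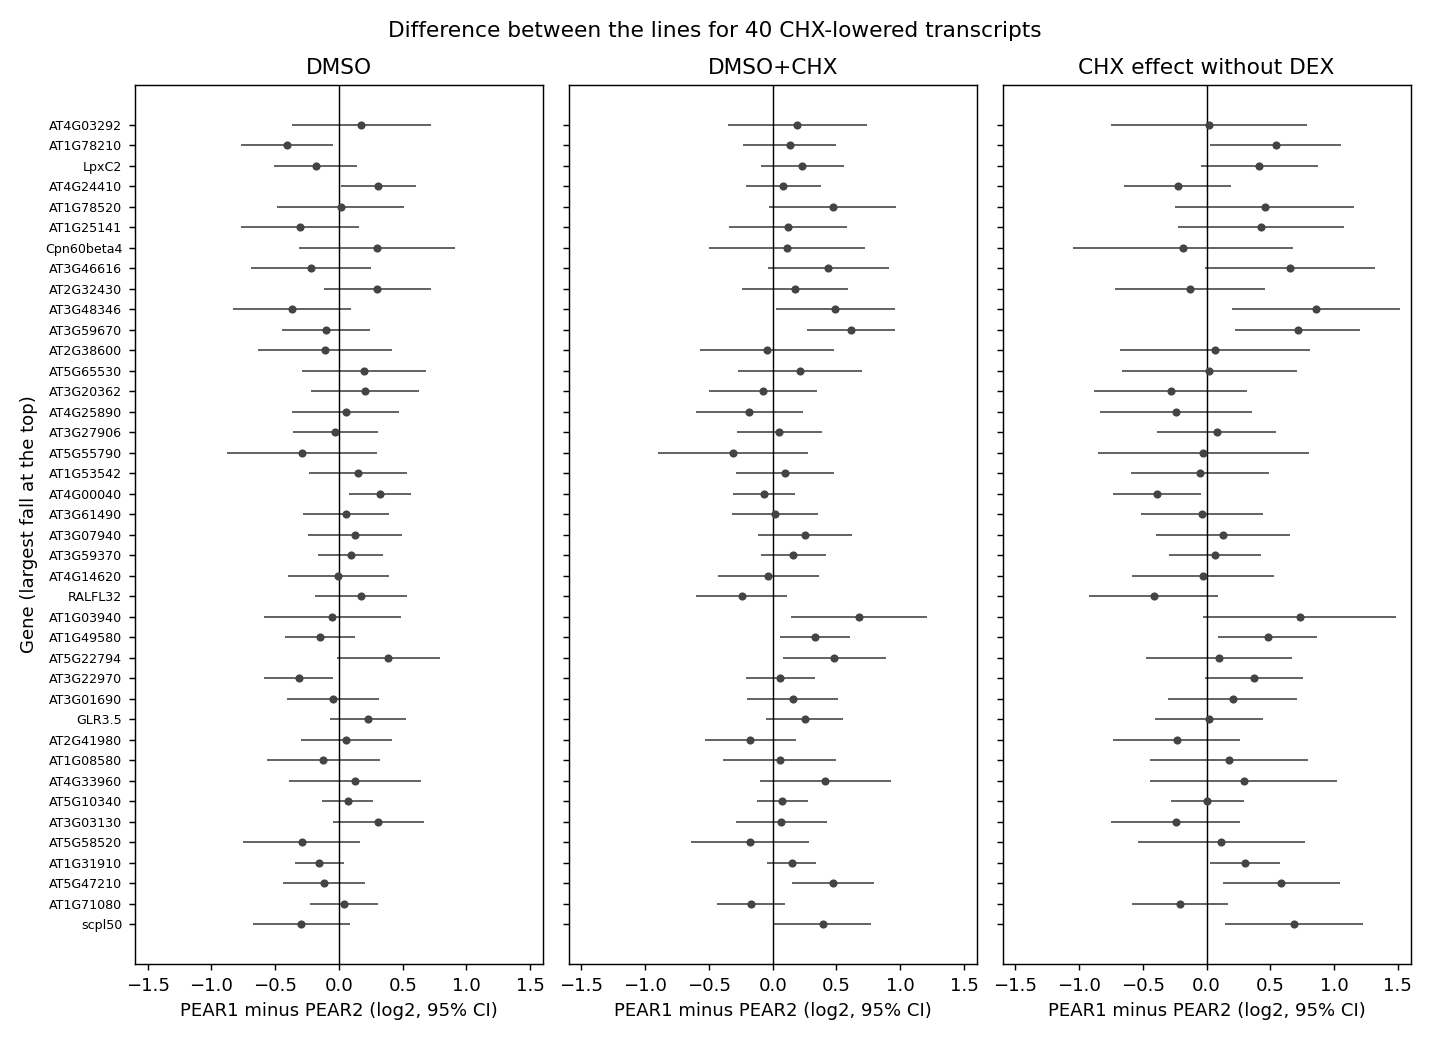
Difference between the lines, PEAR1 minus PEAR2 in log2 units with its 95% confidence interval, for each of the 40 transcripts in DMSO (left), in DMSO+CHX (middle) and for the change from DMSO to DMSO+CHX (right). Points lie on both sides of 0 in all 3 panels, from -0.42 to 0.86 at the extremes, and 0 of 40 passed the adjusted threshold in any of them.

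The level with DEX and CHX together was set beside the level with CHX alone, as a description without a test, because the DEX+CHX arrays chose the set and the 2 groups were arrayed in different batches. DEX+CHX minus DMSO+CHX had a median of 0.19 in PEAR1-line roots and 0.27 in PEAR2-line roots. Over all single-gene rows the medians were -0.006 and -0.027. This difference was above 0 in both lines for 25 transcripts, below 0 in both for 8, and of opposite sign for 7. Taken by line, it was below 0 for 11 of the 40 in the PEAR1 line, beside 51.2% of all single-gene rows. In the PEAR2 line it was below 0 for 12, beside 54.1%. All DEX+CHX arrays were above all DMSO+CHX arrays for 9 transcripts in the PEAR1 line, where 8.40% of single-gene rows did so, and for 10 in the PEAR2 line, where 11.3% did. All were below for 4 transcripts in the PEAR1 line (8.87% of single-gene rows) and for 1 in the PEAR2 line (14.2%).

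All DEX+CHX arrays were the higher ones in both lines for 3 transcripts, beside 3.91% of all single-gene rows: AT5G65530 (0.96 and 0.61), AT1G49580 (0.53 and 0.36) and AT5G10340 (0.45 and 0.63). AT3G20362 alone was wholly below in both lines, beside 4.20% of all single-gene rows. AT3G20362 in the PEAR1 line read 8.71, 8.80 and 9.22 in DMSO, 8.88, 8.77 and 8.57 in DEX, 6.64, 7.58 and 7.34 in DMSO+CHX, and 6.49, 6.43, 6.31 and 6.33 in DEX+CHX. AT3G20362 in the PEAR2 line read 8.66, 8.69 and 8.77 in DMSO, 8.77, 8.60 and 8.69 in DEX, 7.46, 6.76 and 7.58 in DMSO+CHX, and 6.16, 6.43 and 6.11 in DEX+CHX. The CHX arrays of AT3G20362 were lower with DEX than without it, by -0.80 and -1.03, and both sets were below the arrays without CHX. Cpn60beta4 (-0.79 and -0.56), AT3G46616 (-0.69 and -0.35) and AT2G38600 (-0.43 and -0.74) had the same sign in their means. The part of batch in these differences was not tested.

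Some of the 40 genes had a second array row. The rule was applied to each row by itself, so these are the rows of the same genes that did not meet it, and their values are a description only. There were 7 such rows for 6 genes, and the other 34 had none. From DEX to DEX+CHX 6 of the 7 were lower in both lines, where 50.3% of single-gene rows were, and 1 was lower by 1.8 or more in both, that of scpl50 (-2.39 and -2.03), which missed the rule because DEX and DMSO differed by 0.62 in the PEAR1 line. For the other genes the second row differed less than the row that was chosen. Some second rows were low in DMSO: 4.52 for AT1G78210, 3.51 for Cpn60beta4 and 3.44 for AT4G24410. They had less room to fall to the floor of 2.3 than the chosen rows, and the part of this was not tested. The second row of AT3G20362 read 8.38, and the 2 of AT1G03940 read 7.60 and 4.23. The second row changed by -0.72 and -0.41 for AT1G78210 against -4.24 and -4.36, and by -0.67 and -0.37 for Cpn60beta4 against -3.03 and -2.43. For AT4G24410 it was -1.72 and -1.67 against -3.07 and -2.86, and for AT3G20362 -1.54 and -1.35 against -2.35 and -2.45. AT1G03940 had 2 further rows, 1 at -1.26 and -0.80 and 1 at 0.25 and 0.43, against -2.41 and -1.91.

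**Figure D5:**
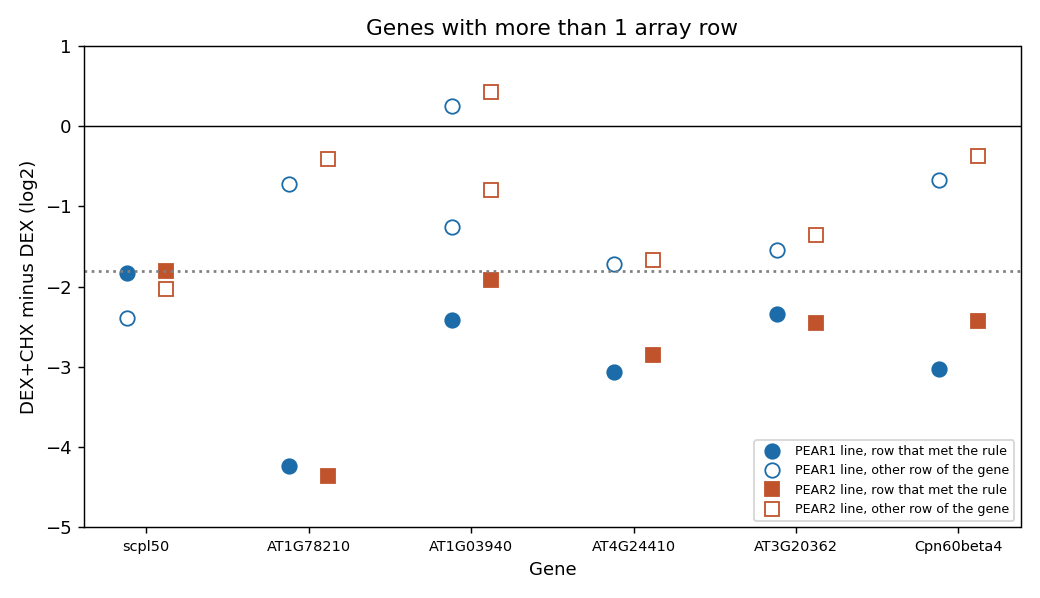
Change from DEX to DEX+CHX (log2) for the 6 genes that have more than 1 array row, with filled symbols for the row that was chosen and open symbols for the other rows, circles for the PEAR1 line and squares for the PEAR2 line. The dotted line marks -1.8. The open symbols lie nearer 0 than the filled ones except for scpl50.

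The part of the gene that each row covers is unknown here, and whether the rows of 1 gene report different transcripts was not tested.

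The neighbours of the 40 genes in the RefSeq annotation were looked up, because the labelled RNA of overlapping genes can meet in 1 row of an array. Of the 40, 12 overlap another annotated gene, and for 2, AT1G53542 and AT1G03940, that gene is a snoRNA. There were 37 overlapping or adjacent genes with a row of their own. From DEX to DEX+CHX 0 of the 37 were lower by 1.8 or more in both lines, beside 61 of all 16746 single-gene rows. A fall this rare would seldom appear among 37 rows, so the count of 0 does not set the neighbours apart. The closest to the limit was AT5G10336 beside AT5G10340, at -1.83 and -1.75. AT4G14000, which overlaps RALFL32, was at -0.74 and -0.53, and AT1G31920, which overlaps AT1G31910, at -0.36 and -0.32. Rows shared by 2 or more genes were not used for the choice, and 1 of them, assigned to AT4G00030 and AT4G00040, was at -1.78 and -1.74.

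None of the 40 was found in the gene families searched by symbol or in the locus lists, and a locus without a symbol cannot be found by the first. Families of the search can therefore have members among the 40. AT4G25890, AT5G65530, AT3G61490 and AT2G32430, described above by general knowledge, are of the ribosomal protein, receptor-like kinase, pectin and glycosyltransferase kinds. The 26 symbol families covered auxin, cytokinin, ethylene, defence, calcium, cell wall and cell cycle genes. Of these families 21 had 1 or more named rows, 189 rows in all. From DEX to DEX+CHX 0 of those rows were lower by 1.8 or more in both lines, beside 61 of all 16746 single-gene rows. So rare a fall is not expected in 189 rows, and the count of 0 does not set these families apart. The lists of 20 loci had 4 rows. In several of these families the median change from DEX to DEX+CHX was upward, as in 6 calmodulin rows (4.00) and 7 WRKY rows (1.71), and the median of 24 expansin rows was -0.11. Of the 40, 12.5% had a symbol, beside 10.7% of all matched rows, so symbols reach few of either.

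Replicate arrays of a group correlated at 0.988 to 0.994 over all rows, and arrays with CHX correlated with arrays without it at 0.890 to 0.922. PEAR2 itself read 6.47 ± 0.15 (SD, n = 3) in PEAR1-line roots and 10.74 ± 0.01 in PEAR2-line roots in DMSO, and 8.65 ± 0.19 and 12.03 ± 0.06 in DMSO+CHX, so the row separated the lines and was higher with CHX in both. PEAR1 had no row that names it alone. Of 22 marker genes of root cell types 2 had a named row, and both mark root hairs. EXPA7 went from 9.64 in DMSO to 9.46 in DMSO+CHX for PEAR1 and from 9.71 to 9.43 for PEAR2, and EXPA18 from 8.43 to 7.79 and from 8.42 to 7.66. AUR1, a mitotic kinase gene, went from 8.03 to 7.38 and from 7.75 to 7.09. Of 5 markers of green tissue 1, RCA, had a row, which went from 6.93 to 5.80 and from 7.04 to 6.04. These 4 were lower with CHX in both lines. ARR15, from the list of cytokinin response loci, was not: it went from 2.43 to 2.45 and from 2.31 to 2.43, near the floor. Of all single-gene rows, 58.2% (PEAR1) and 53.6% (PEAR2) had a lower mean in DMSO+CHX than in DMSO. Being lower therefore does not set the 4 genes apart from other rows. The part of these 4 genes in the falls of the 40 was not tested.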

How the data were processed

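Values were deposited by the authors as log2 intensity after RMA, per the submitters' processing notes; the sources used here give no version or options for RMA and no genome build. Of 38408 rows, 16746 name 1 gene, 758 several and 20904 none; of the first, 16601 matched RefSeq TAIR10.1, which gave names and neighbours only. Means per group were fitted over all 25 arrays with limma 3.58.1 in R 4.3.3 (lmFit, eBayes), and p-values were adjusted by Benjamini-Hochberg over the 17504 rows that name any gene, at 0.05. The fit was checked on simulated data of 17504 rows made from these arrays. For PEAR1 DMSO+CHX against DMSO it recovered 100% of changes of 2 log2 units and 32.8% of changes of 0.5. For PEAR1 against PEAR2 in DMSO+CHX it recovered 100% of changes of 2, 85.1% of changes of 1 and 23.9% of changes of 0.5. Small differences between the lines would therefore often be missed. Arrays have no read depth, and their number limits the precision.

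The members and gene lists were chosen with earlier results of these data known. Named genes were the 12 with the largest fall, the 8 others highest in DMSO and those next to the limit; RALFL32, GLR3.5, AT1G03940, AT4G25890 and the other members were added after their values were seen. Contrasts that the choice used were described without a test. Alternatives were other limits, scalings, row filters, priors, array weights, a replicate block and leaving out each array. Same-numbered arrays did not deviate together, so replicate numbers were not used to pair samples. A planned search of promoter sequences was not run, and sequences are not analysed here.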

Additional observations from a re-analysis of the deposited data

Results flagged for a closer look

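In the 4 arrays of PEAR1 DEX+CHX, 3 of the 40 transcripts had 1 array far from the others by Dixon's ratio, the gap to the nearest array over the range of the group. Chance flags about 5% of groups. For AT1G53542 the ratio was 0.939, with replicate 4 at 4.09 and the next array at 3.49. For AT2G32430 it was 0.848, with replicate 1 at 4.65 and the next at 4.19. For AT5G47210 it was 0.844, with replicate 4 at 8.45 and the next at 7.88. In all 3 the stray array was the highest of its group and still lay below every array without CHX.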

How the results depend on the processing

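The count of 40 transcripts moved with the limits of the choice: to 108 with a fall of 1.5, to 21 with a fall of 2.1, and to 25 with DEX within 0.3 of DMSO. It was 32 after 1 more quantile normalization, 38 after a shift to the 75th percentile, 47 with DEX within 0.7, 43 with medians of arrays, 39 without rows at the floor, and 37 to 46 when each array was left out. The calls of the 40 from DMSO to DMSO+CHX stayed at 40 of 40 in each line, and those between the lines at 0 of 40, under every alternative fit run. With a replicate block they were 40 and 40 lower and 0, 0 and 0 between the lines; same-numbered arrays correlated at -0.06 to 0.05 in their deviations, so the numbers do not pair the samples.

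Over all rows some totals moved by more than 1.5 times. With all 38408 rows tested, 18171 and 18430 differed between DMSO+CHX and DMSO, against 7976 and 8180, since more rows were tested. Between the lines the totals over all rows were few and unsteady: 20 in DMSO+CHX became 61 with array weights and 9 to 34 with 1 array left out; 33 in DMSO became 3 with only those groups fitted, 17 with array weights, 59 with an intensity trend and robust prior, 63 with all rows, and 9 to 21 in 5 of the fits that left out 1 array; 26 for the difference of changes became 15 with only those groups, 45 with the trend, and 4 to 14 in 11 of the fits that left out 1 array. The cause of these moves was not tested. The number of arrays limits these tests, and the floor limits AT1G78210 and may limit AT4G03292.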
